A study of Mus musculus with 12 samples.

Results

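A set of 10 genes that mark the transmitter used by spinal neurons was followed through RNA sequencing libraries of mouse spinal cord white matter. The members were taken by symbol: Slc17a6 and Slc17a7 for glutamate, Slc6a5, Slc32a1, Gad1 and Gad2 for glycine and GABA, Chat, Slc5a7 and Slc18a3 for acetylcholine, and Isl1 for the transcription factor of motor neurons. All 10 were found among the 46078 gene identifiers of the count table, each under 1 identifier, and 9 passed the filter on low counts, Slc17a7 being the exception. The libraries came from C57Bl6 mice in 4 groups of 3, namely naïve and injured mice, each young or middle-aged. Naïve mice had no lesion, so that the effect of an injection without the toxin is not part of the design. Injured mice had been given lysolecithin, a detergent-like lipid that causes demyelination, in the ventrolateral white matter 72 h (day 3) earlier. According to the methods, young mice were 6 weeks and middle-aged mice 8 months old, ages that the labels do not state. The ventrolateral white matter was cut out of stained cryosections with a laser microscope. Each library held the tissue of 5 mice, so that p-values measure the spread between pools and not between animals.

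A spinal neuron releases the transmitter that it can make or take up and load into vesicles, and a few proteins decide this. Vesicular glutamate transporters load glutamate in excitatory neurons, glutamate decarboxylases make GABA, Slc32a1 loads GABA and glycine, and the choline transporter, choline acetyltransferase and vesicular acetylcholine transporter serve acetylcholine in motor neurons and in some interneurons. The messenger RNAs of these proteins are held mostly in the cell bodies of neurons, which lie in the grey matter, whereas white matter is made of axons, oligodendrocytes, astrocytes and microglia. The level of these genes in a white matter dissection therefore bears on how much neuronal RNA was taken along, and their balance on which neurons it came from. Since the tissue was measured in bulk, fewer cells of a type and less RNA per cell cannot be told apart.

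The 12 pools held 9834447 to 12807437 counts each, and the most abundant gene, the mitochondrial ribosomal RNA mt-Rnr2, took 7.61% to 15.4% of them. A count of 3 was taken as the floor of detection, which corresponds to 0.234 to 0.305 CPM (counts for every 1000000 in the library). The reads had been amplified, so that intervals and floors cover counting error only. Levels are given as TMM-normalised CPM, in which the library total is adjusted by the trimmed mean of M values. The label white matter was checked against marker lists. The 6 oligodendrocyte markers summed to 52950 to 101835 CPM in the naïve pools, whereas the 14 pan-neuronal markers, found in all neurons, summed to 2969 to 6426 CPM there. No pan-neuronal marker was at or under the floor in all pools.

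The members lie on 5 chromosomes of GRCm38. Chat is on the minus strand of chromosome 14 from 32408203 to 32465989, and Slc18a3, a gene of a single exon, lies inside it from 32462438 to 32464850 on the same strand, with 0 exonic bases shared. Slc5a7 is on chromosome 17 (54273590 to 54299034, minus strand) and Isl1 on chromosome 13 (116298281 to 116309689, minus strand). Chromosome 7 holds Slc17a6 (51622006 to 51671119), Slc17a7 (45163949 to 45176142) and Slc6a5 (49910146 to 49963856), all on the plus strand. Chromosome 2 holds Slc32a1 (158610767 to 158615748), Gad1 (70553072 to 70602014) and Gad2 (22622205 to 22693874), also on the plus strand. The strand setting of the counting was not given in the sources used here. The antisense gene Gm14205 shares 697 exonic bases with Slc32a1 and had 0 to 5 counts per pool. The exon length of 2797 bases used for Slc32a1 includes the shared bases. Whether reads in them were counted for Slc32a1 was not tested, and its levels per kb depend on this. The share of 31-base stretches found also in transcripts of other genes was highest for Gad1, at 3.97%, followed by Gad2, at 1.75%, and was under 1% for each other member.

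The 3 cholinergic genes moved together in the comparisons described here, whereas the glutamate transporter Slc17a6 did not follow them, and the bases before their start sites are printed for that reason. They are RefSeq sequences of GRCm38.p6, 5′ to 3′ on the strand of the gene, limited to bases without an annotated exon. Capitals mark motifs found on either strand: TATAAA, the GC box GGGCGG (written CCGCCC on the other strand) and CCAAT.
Chat, chr14:32465990-32466159, strand minus: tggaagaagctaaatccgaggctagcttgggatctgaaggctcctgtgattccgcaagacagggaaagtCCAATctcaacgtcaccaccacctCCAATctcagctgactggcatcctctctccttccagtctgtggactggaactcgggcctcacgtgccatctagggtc
Slc18a3, chr14:32464851-32465041, strand minus: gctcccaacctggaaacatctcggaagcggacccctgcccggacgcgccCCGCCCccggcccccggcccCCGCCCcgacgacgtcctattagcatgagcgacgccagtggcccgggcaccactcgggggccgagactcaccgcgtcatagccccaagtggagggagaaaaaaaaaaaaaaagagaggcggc
Slc5a7, chr17:54299035-54299284, strand minus: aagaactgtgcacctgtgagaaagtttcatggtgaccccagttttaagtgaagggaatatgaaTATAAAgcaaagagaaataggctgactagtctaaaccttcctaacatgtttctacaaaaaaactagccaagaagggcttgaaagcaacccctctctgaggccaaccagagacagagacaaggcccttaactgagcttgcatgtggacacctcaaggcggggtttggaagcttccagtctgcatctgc
Slc17a6, chr7:51621580-51621829, strand plus: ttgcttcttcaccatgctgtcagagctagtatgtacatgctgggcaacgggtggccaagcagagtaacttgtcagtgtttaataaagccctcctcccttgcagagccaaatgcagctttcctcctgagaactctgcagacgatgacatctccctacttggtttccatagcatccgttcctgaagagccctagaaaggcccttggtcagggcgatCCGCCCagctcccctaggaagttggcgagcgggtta
Chat held CCAAT at 181 and 157 bases before its start site, Slc18a3 held GC boxes at 142 and 122 bases before its own, Slc5a7 held TATAAA at 187 bases, and Slc17a6 held a GC box at 36 bases. The homeodomain core TAATTA, also searched, was found in the windows of none of the 10 members. No motif was shared by all 3 cholinergic genes. Of 32851 RefSeq windows of 300 bases, 13.6% held TATAAA, 35.7% the GC box, 37.4% CCAAT and 5.29% TAATTA, so that matches of this kind are common and describe letters only.

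In young naïve white matter the cholinergic genes had the highest levels. To compare genes, CPM were divided by exon length in kilobases. In young naïve pools Slc5a7 stood at 32.3 ± 12.2 CPM per kb (SD, n = 3), followed by Chat at 11.0 ± 1.84, Slc18a3 at 9.09 ± 3.76, Slc6a5 at 7.35 ± 5.09 and Slc32a1 at 6.45 ± 3.88. Lower levels per kb were found for Slc17a6 (3.00 ± 1.89), Gad1 (2.41 ± 1.095), Gad2 (0.987 ± 0.848) and Isl1 (0.451 ± 0.301). In this order only Slc5a7 was separated from its neighbour, with a lowest pool of 18.4 against a highest pool of 12.6 CPM per kb for Chat, and all other neighbours overlapped. In middle-aged naïve pools Slc5a7 (31.8 ± 2.31 CPM per kb) was followed by Slc32a1 (12.5 ± 15.7), Chat (11.5 ± 2.49), Slc18a3 (9.12 ± 1.79) and Slc6a5 (5.43 ± 0.925), then Gad1 (1.59 ± 0.0325), Slc17a6 (1.19 ± 0.201), Isl1 (0.401 ± 0.180) and Gad2 (0.295 ± 0.115). There the first 4 overlapped with their neighbours, as did Isl1 and Gad2, and the others were separated. In young injured pools the order was Slc5a7 (4.38 ± 0.778), Slc17a6 (3.27 ± 1.64), Slc6a5 (1.85 ± 0.606), Slc18a3 (1.77 ± 0.484), Gad1 (1.46 ± 0.137), Chat (1.27 ± 0.342), Slc32a1 (1.01 ± 0.247), Gad2 (0.746 ± 0.114) and Isl1 (0.120 ± 0.0378). In middle-aged injured pools it was Slc5a7 (3.65 ± 0.928), Slc17a6 (3.43 ± 1.05), Slc6a5 (2.22 ± 0.722), Gad1 (2.18 ± 0.158), Slc32a1 (1.77 ± 0.421), Slc18a3 (1.53 ± 0.337), Chat (1.33 ± 0.487), Gad2 (0.813 ± 0.204) and Isl1 (0.0916 ± 0.0358). In both injured groups each gene overlapped with its neighbour in the order, apart from Isl1, which lay below Gad2.

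**Figure D1:**
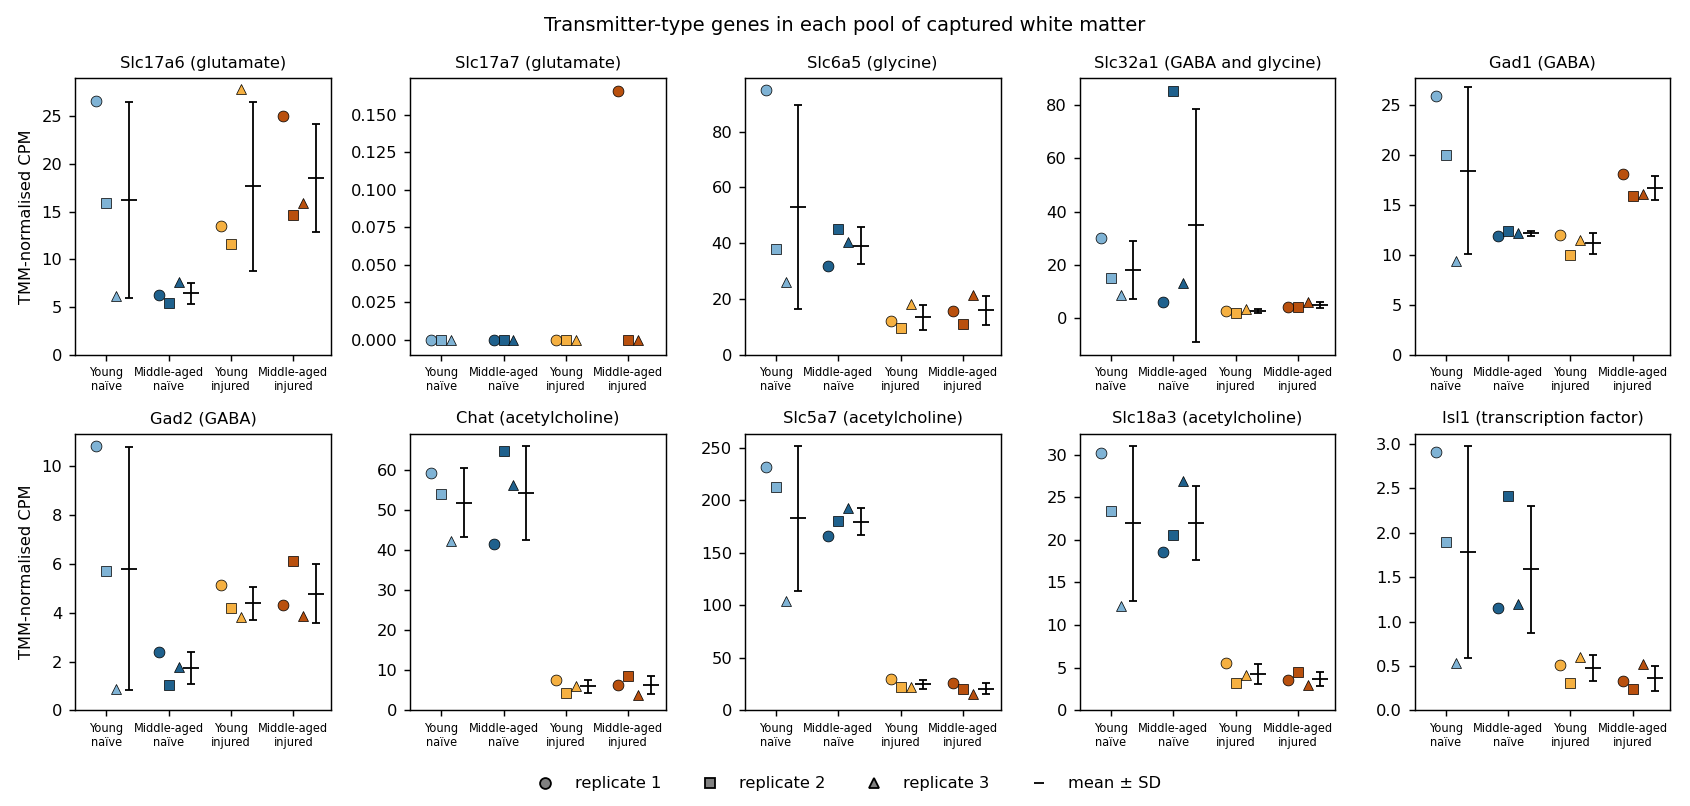
TMM-normalised CPM (y axis, a separate scale for each gene) of the 10 members in each pool, by group (x axis). Symbols are replicates 1 to 3, bars are the mean ± SD of 3 pools, left out for Slc17a7, and the bar of Slc32a1 in middle-aged naïve pools reaches below 0 because of 1 high pool. The cholinergic genes in the lower row drop in both injured groups, from 41.6 to 64.8 CPM to 3.88 to 8.46 CPM for Chat, whereas Slc17a6 and Gad2 do not.

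The first comparison asked how the lesion at 72 h differed from naïve white matter at each age. In young mice 7 of the 9 members tested were lower in injured than in naïve pools and 0 were higher, by edgeR's quasi-likelihood test with Benjamini-Hochberg adjustment over the 15866 genes tested and a threshold of 0.05. Of all genes tested, 26.3% were lower and 28.3% higher. In middle-aged mice 6 members were lower and 1 was higher, where 29.3% of all genes were lower and 29.2% higher. The median log2 fold change of the members was -1.99 in young and -2.09 in middle-aged mice, beside 0.00 and -0.03 over all genes tested. With only the pools compared in the model, 5 members were lower in young mice.

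**Figure D2:**
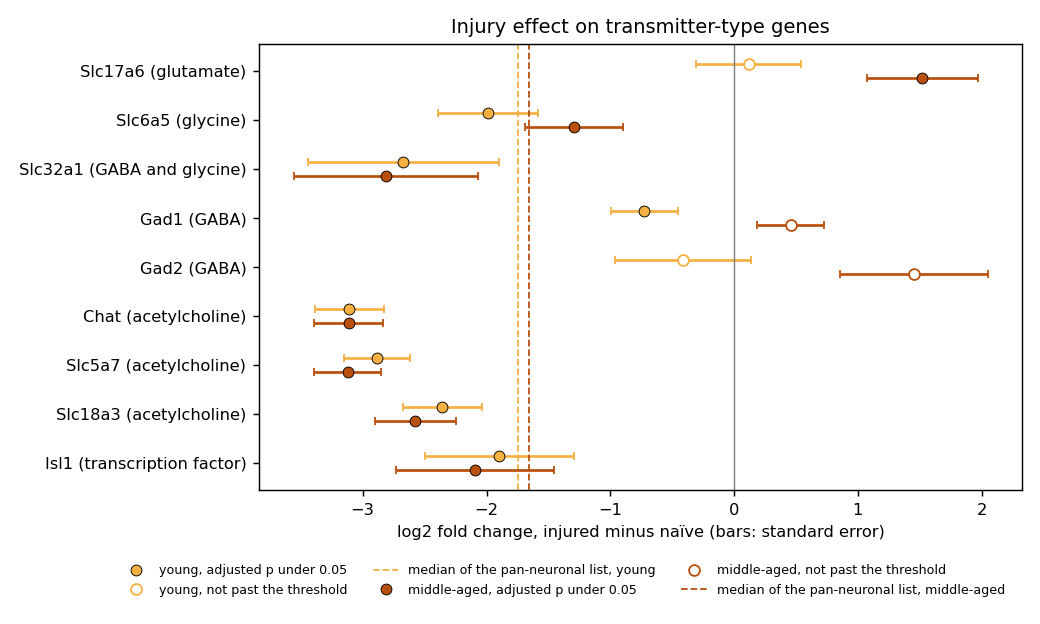
Log2 fold change between injured and naïve pools (x axis) for the 9 members tested, with bars of 1 standard error, in young and middle-aged mice (n = 3 pools a group). Filled points had an adjusted p under 0.05 (edgeR), and dashed lines are the medians of the pan-neuronal list, -1.74 and -1.66. The cholinergic genes, Slc32a1 and Isl1 lie left of these lines at both ages, and Slc6a5 does so only in young mice. At middle age the place of Slc32a1 rests on naïve replicate 2. Gad1, Gad2 and Slc17a6 lie right of the lines.

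Chat encodes choline acetyltransferase, which makes acetylcholine. It stood at 59.3, 54.0 and 42.4 CPM in young naïve replicates 1, 2 and 3, and at 7.55, 4.33 and 6.09 CPM in young injured ones. In middle-aged mice the values were 41.6, 64.8 and 56.3 CPM in naïve and 6.38, 8.46 and 3.88 CPM in injured pools. Every injured pool lay far below every naïve pool. Its log2 fold change was -3.11 at both ages (SE, the standard error, 0.28), with an adjusted p of 3.72e-07 in young and 3.26e-07 in middle-aged mice (edgeR), and Chat fell by 88.4% at either age.

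Slc5a7, the choline transporter that brings choline back into cholinergic terminals, was the most abundant member. It had 231, 212 and 104 CPM in the young naïve pools and 29.8, 22.4 and 21.9 CPM in the young injured pools. In middle-aged mice it had 166, 180.1 and 192 CPM in naïve and 26.1, 20.02 and 15.7 CPM in injured pools. The groups did not overlap at either age. On the log2 scale injured minus naïve was -2.89 in young (SE 0.27, adjusted p = 4.88e-07 with edgeR) and -3.12 in middle-aged mice (SE 0.27, adjusted p = 2.25e-07), so that it fell by 86.5% and fell by 88.5%.

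Slc18a3, the transporter that loads acetylcholine into vesicles, followed the same course at a lower level. It stood at 30.2, 23.4 and 12.2 CPM in young naïve and 5.50, 3.17 and 4.14 CPM in young injured replicates 1 to 3. In middle-aged mice the values were 18.6, 20.5 and 26.9 CPM in naïve and 3.56, 4.55 and 2.93 CPM in injured pools. Again no injured pool reached a naïve pool of the same age. The log2 fold change was -2.36 in young (SE 0.32, adjusted p = 2.14e-05 with edgeR) and -2.57 in middle-aged mice (SE 0.32, adjusted p = 9.71e-06). The 3 genes together summed to 256 ± 86.0 CPM in young naïve and 34.96 ± 6.88 CPM in young injured pools, and to 256 ± 25.9 and 30.5 ± 7.12 CPM at middle age (SD, n = 3). These 3 calls were kept at both ages in each setting scaled to all genes and with each pool left out.

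Isl1, a LIM homeodomain factor of motor neurons and of some dorsal interneurons, was close to the floor. It had 32, 21 and 5 counts in young naïve and 7, 4 and 8 counts in young injured pools, and 12, 23 and 15 counts in middle-aged naïve against 4, 3 and 6 counts in middle-aged injured pools. The young groups overlapped through naïve replicate 3, and the middle-aged groups did not overlap. Its log2 fold change was -1.90 in young (SE 0.60, adjusted p = 0.0154 with edgeR) and -2.09 in middle-aged mice (SE 0.64, adjusted p = 0.0112). The young call was lost without young naïve replicate 1 (adjusted p = 0.106) and without young injured replicate 2 (adjusted p = 0.0685), and Isl1 did not pass the filter with only the young pools in the model.

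The inhibitory genes split in their response. Slc6a5 encodes the glycine transporter of glycinergic terminals. It had 94.7, 38.0 and 26.1 CPM in young naïve and 12.1, 9.75 and 18.2 CPM in young injured pools, and 31.9, 45.1 and 40.4 CPM in middle-aged naïve against 15.6, 11.0 and 21.4 CPM in middle-aged injured pools. All injured pools lay below the naïve pools of their age, with young naïve replicate 1 standing high. On the log2 scale injured minus naïve was -1.99 in young (SE 0.40, adjusted p = 0.000755 with edgeR) and -1.29 in middle-aged mice (SE 0.40, adjusted p = 0.0120). Without young naïve replicate 1 the young value was -1.26, still past the threshold, and the middle-aged call was lost without injured replicate 2 (adjusted p = 0.0572).

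Slc32a1 loads both GABA and glycine into vesicles. In young mice it had 30.0, 15.2 and 8.91 CPM in naïve and 2.93, 2.09 and 3.46 CPM in injured pools, with no overlap. In middle-aged naïve pools it had 6.04, 85.3 and 13.3 CPM, and in the injured ones 4.15, 4.39 and 6.29 CPM. Replicate 2 of the middle-aged naïve group, with 814 counts, stood far above all other pools, and replicate 1 fell within the range of the injured pools. The log2 fold change was -2.67 in young (SE 0.77, adjusted p = 0.00886 with edgeR) and -2.81 in middle-aged mice (SE 0.75, adjusted p = 0.00484). Without that replicate the middle-aged value was -0.98, with an adjusted p of 0.0691, so the size and the call rest on that pool.

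Gad1 and Gad2 encode the enzymes that make GABA, Gad1 the form that is active throughout the neuron and Gad2 the form at terminals. Gad1 had 25.8, 20.01 and 9.34 CPM in young naïve and 12.02, 9.99 and 11.4 CPM in young injured pools. In middle-aged mice it had 11.9, 12.4 and 12.2 CPM in naïve and 18.1, 15.9 and 16.1 CPM in injured pools. The young groups overlapped, whereas in middle-aged mice the injured pools all lay above the naïve ones. In young mice Gad1 was lower by a log2 fold change of -0.73 (SE 0.27, adjusted p = 0.0345 with edgeR), and this call was lost with library totals (adjusted p = 0.113), with only the young pools in the model (adjusted p = 0.0589), without young naïve replicate 1 (log2 fold change -0.40, adjusted p = 0.230) or replicate 2 (adjusted p = 0.0971) and without any of the young injured replicates (adjusted p = 0.0614, 0.111 and 0.0727). In middle-aged mice the value was 0.46 (SE 0.27, adjusted p = 0.164), which passed the threshold only without young naïve replicate 3 (adjusted p = 0.0282).

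Gad2 had the lowest mean level per kb of the inhibitory genes in each group, though in CPM the mean of Slc32a1 was lower in young injured pools. It had 10.8, 5.71 and 0.859 CPM in young naïve and 5.13, 4.18 and 3.84 CPM in young injured pools, and 2.40, 1.05 and 1.76 CPM in middle-aged naïve against 4.31, 6.14 and 3.88 CPM in middle-aged injured pools. Young naïve replicate 3 rested on 8 counts, or 0.813 CPM by library total with a 95% Clopper-Pearson interval of 0.351 to 1.603. The young groups overlapped and the middle-aged injured pools all exceeded the naïve ones. Its log2 fold change was -0.41 in young (SE 0.55, adjusted p = 0.553 with edgeR) and 1.45 in middle-aged mice (SE 0.60, adjusted p = 0.05003, just above the threshold). In young mice leaving out naïve replicate 1 turned the value to 0.40, and without naïve replicate 3 it was -0.91 with an adjusted p of 0.0487. In middle-aged mice the value passed the threshold in several other settings, DESeq2 among them (adjusted p = 0.0305). The 4 inhibitory genes together summed to 95.2 ± 59.8 CPM in young naïve and 31.7 ± 5.48 CPM in young injured pools, and to 87.9 ± 49.0 and 42.4 ± 5.14 CPM at middle age.

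Slc17a6, the vesicular glutamate transporter of most spinal excitatory neurons, was the single member called higher in the fit of the first comparison. This call was made in middle-aged mice, where the injured pools of Gad1 and Gad2 also lay above the naïve ones without a call in that fit. In young mice it stood at 26.6, 15.9 and 6.12 CPM in naïve and 13.5, 11.6 and 27.8 CPM in injured pools. In middle-aged mice it stood at 6.23, 5.45 and 7.59 CPM in naïve and 25.0, 14.7 and 15.9 CPM in injured pools. The young groups overlapped widely, whereas every middle-aged injured pool lay above every middle-aged naïve pool. On the log2 scale injured minus naïve was 0.12 in young (SE 0.42, adjusted p = 0.837 with edgeR) and 1.52 in middle-aged mice (SE 0.45, adjusted p = 0.00918), the latter a 2.87-fold rise that held in each setting and with each pool left out (1.25 to 1.67). The young value changed sign when a pool was left out, between -0.37 and 0.67.

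Slc17a7, the glutamate transporter of cortical neurons and of large sensory afferents, had 0 counts in 11 pools and 2 counts in middle-aged injured replicate 1. Given the floor of 3 counts, a level of up to 0.234 to 0.305 CPM would not have been detected, and no comparison was made.

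The other neuronal genes gave the background to these changes. Of the 14 pan-neuronal markers 12 were lower after injury in young and 13 in middle-aged mice and 0 were higher, with median log2 fold changes of -1.74 and -1.66. The neurofilament genes Nefm (-2.54 and -2.99), Nefl (-2.44 and -2.53) and Nefh (-2.39 and -2.89), which build the axonal skeleton, fell the most among them in young mice. Of 13 synaptic vesicle genes 11 were lower at each age, with medians of -1.56 and -1.33, led in young mice by Sv2b (-2.38), Rab3a (-2.34) and Vamp1 (-2.24). Of 8 motor neuron markers 8 were lower in young and 7 in middle-aged mice, with medians of -2.38 and -2.51. Esrrb, a nuclear receptor, fell by 2.82, Mnx1 by 2.74 and Isl2 by 2.72 on the log2 scale in young mice, Mnx1 and Isl2 being homeodomain factors of motor neurons. The members' own counts stood beside 26.3% and 29.3% of all genes called lower, and the lists were not tested against other genes.

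Of 15 neuropeptide and calcium-binding genes found in dorsal horn neurons 10 were tested, and 5 were lower and 2 higher in young mice, with 6 and 2 in middle-aged mice. Calb1 (-3.94 and -4.34) and Calb2 (-3.19 and -3.89), which encode the calcium buffers calbindin and calretinin, fell the most. Npy, which encodes neuropeptide Y, had 0 to 2 counts in each naïve pool and was higher after injury, at 2.82 ± 0.4996 CPM in young and 4.07 ± 0.921 CPM in middle-aged mice (SD, n = 3). Of the 16 transcription factors of spinal neuron subtypes only 4 passed the filter, with median log2 fold changes of 0.53 in young and 1.39 in middle-aged mice, and at each age 1 was higher and 0 were lower. This was Phox2a (log2 fold changes 2.04 and 2.77), and Tlx3, a factor of excitatory dorsal neurons, had 0 counts in all pools. The nociceptor genes Scn10a and Mrgprd of dorsal root ganglia were at 0 in all pools, and the 6 sensory ganglion genes summed to at most 4.73 CPM in any pool, with 1 of them tested (-1.65 in young mice, called lower, and -0.53 in middle-aged mice, not called).

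**Figure D3:**
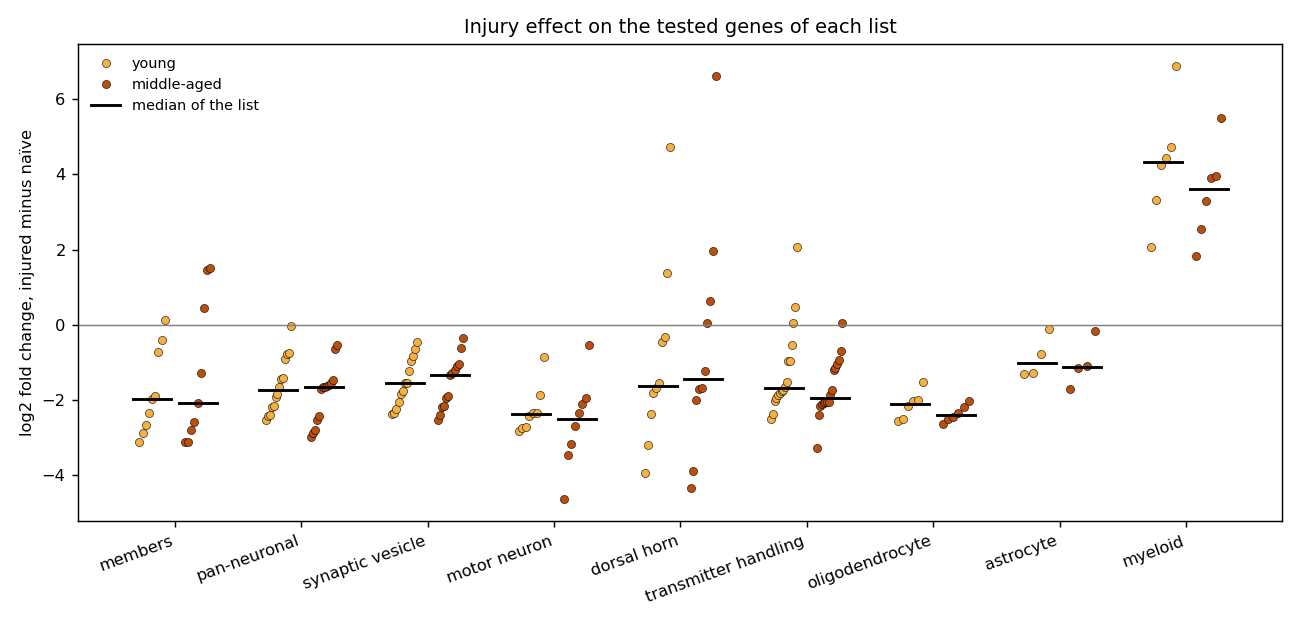
Log2 fold change between injured and naïve pools (y axis) for each tested gene of 9 lists (x axis), in young and middle-aged mice, with black lines for the list medians. The members and the pan-neuronal, synaptic vesicle, motor neuron, dorsal horn and transmitter handling lists have medians from -2.51 to -1.33, the 6 oligodendrocyte genes -2.10 and -2.39, and the 6 myeloid genes 4.34 and 3.601.

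Genes that handle the same transmitters outside the members were also lower. Of 17 genes for uptake, synthesis and breakdown 16 were tested, and 13 were lower at each age, with 1 higher in the young and 0 in the middle-aged. Gls2, a glutaminase, had log2 fold changes of -2.50 and -3.28. Ache, which breaks down acetylcholine, had -2.37 and -2.39. Slc6a13, a GABA transporter known from meninges and vessels, was higher in young mice by 2.08 (adjusted p = 0.0176, edgeR) with overlapping pools, and had -1.19 (adjusted p = 0.123) in middle-aged mice. Several genes of this list are expressed by astrocytes, such as the glutamate transporters Slc1a2 and Slc1a3 and glutamine synthetase Glul.

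Other cell types moved with the lesion as well. The 6 myeloid markers summed to 71.7 to 147 CPM in naïve and 1371 to 1948 CPM in injured pools, and all 6 were higher at each age. The 6 oligodendrocyte markers summed to 52950 to 101835 CPM in naïve and 7922 to 20233 CPM in injured pools, and all 6 were lower at each age. Of 4 astrocyte markers 3 were lower at each age, from sums of 7896 to 9971 CPM in naïve to 3139 to 4968 CPM in injured pools. Of 5 Schwann cell markers 3 were tested, and 2 were higher in young and 1 in middle-aged mice, whereas of 4 ependymal markers 2 were tested, with 0 called in the young and 2 lower in the middle-aged. The part of these shifts in the members' changes was not tested.

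To set the members against neuronal RNA as a whole, the libraries were scaled to the summed counts of the 14 pan-neuronal markers, an alternative added after the data had been seen. With this scaling the median log2 fold change of all genes stood at 1.64 in young and 1.72 in middle-aged mice, where 77.4% and 76.4% of all genes were higher and 0.914% and 1.97% were lower after injury (edgeR). On this scale 2 members were lower in young mice, Chat at -1.44 (SE 0.33, adjusted p = 0.000397) and Slc5a7 at -1.11 (SE 0.28, adjusted p = 0.00112). In middle-aged mice 3 were lower, Chat at -1.34 (SE 0.33, adjusted p = 0.000744), Slc5a7 at -1.35 (SE 0.28, adjusted p = 0.000169) and Slc18a3 at -0.82 (SE 0.33, adjusted p = 0.0265). Slc18a3 had -0.59 in young mice (adjusted p = 0.102), and its middle-aged call was lost without naïve replicate 3 or injured replicates 1 or 3 (adjusted p = 0.115, 0.0618 and 0.123). Chat and Slc5a7 stayed lower at both ages with each pool left out and with the synaptic vesicle genes in place of the pan-neuronal ones.

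The remaining members were not called lower on this scale with all pools. Slc6a5 had -0.16 and 0.47 in young and middle-aged mice (adjusted p = 0.639 and 0.170, edgeR), Isl1 had -0.08 and -0.34 (adjusted p = 0.914 and 0.634) and Slc32a1 had -0.86 and -0.95 (adjusted p = 0.164 and 0.114). The middle-aged value of Slc32a1 was 0.71 without naïve replicate 2 of that age (adjusted p = 0.0978), and it was called lower without naïve replicate 1 (-1.43, adjusted p = 0.00711) or 3 (-1.33, adjusted p = 0.0313). Its young value kept its size without middle-aged naïve replicate 2 and was then called lower (-0.86, adjusted p = 0.0277). Gad1 (1.07 and 2.21), Gad2 (1.54 and 3.17) and Slc17a6 (1.93 and 3.28) were higher at both ages, like most genes on this scale. In young mice Gad1 and Gad2 were below the median of all genes on this scale.

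The balance between the classes was read in each pool as a share of their summed CPM per kb, Isl1 left out. Cholinergic genes made up 66.0% to 77.7% of the sum in young naïve and 57.8% to 82.6% in middle-aged naïve pools, against 38.4% to 54.4% in young injured and 30.6% to 44.7% in middle-aged injured pools. The naïve and injured ranges did not overlap at either age. The glutamate share was 2.71% to 4.91% and 1.08% to 2.07% in young and middle-aged naïve pools and 14.8% to 28.7% and 16.8% to 24.7% in the injured ones. The inhibitory share was 18.8% to 29.1% and 15.4% to 41.1% in naïve pools, and 30.7% to 33.0% and 35.7% to 50.7% in injured pools. Middle-aged naïve replicate 2 set both the inhibitory 41.1% and the cholinergic 57.8%. Slc32a1 alone gave 30.5 of its 38.6 inhibitory CPM per kb. Replicates 1 and 3 of that group had inhibitory shares of 15.4% and 17.3% and cholinergic shares of 82.6% and 80.7%. Per kb, Slc17a6 was at 0.0615 to 0.120 times Slc5a7 in young naïve pools and 0.474 to 1.33 times in young injured pools, and at 0.0316 to 0.0413 and 0.766 to 1.06 times in middle-aged mice.

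**Figure D4:**
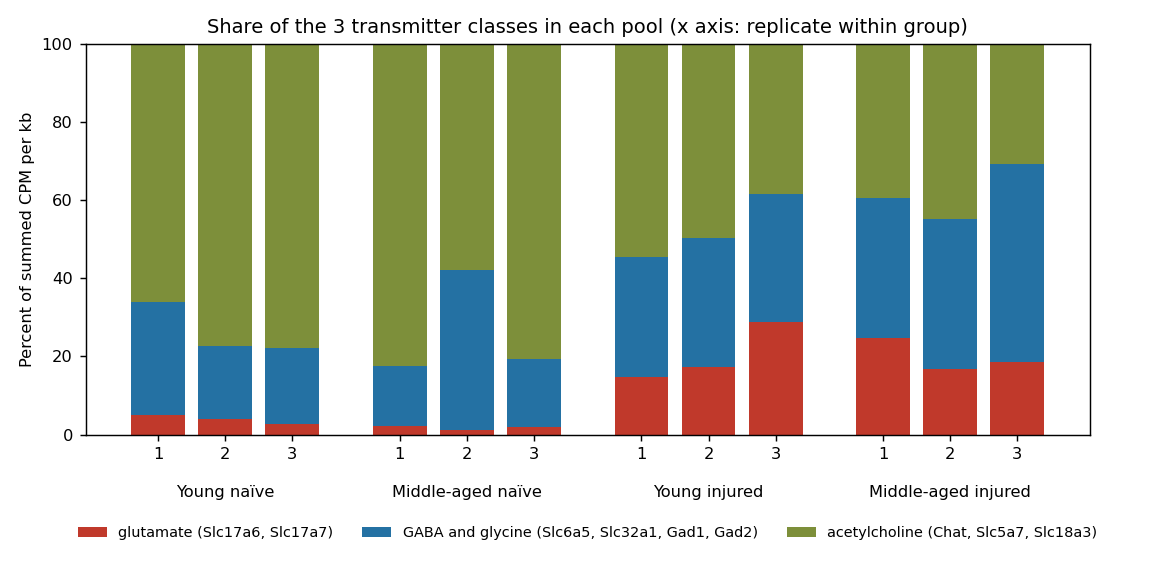
Share of each transmitter class (y axis, percent of summed CPM per kb) in each pool (x axis, replicates 1 to 3 within the 4 groups). Classes hold 2, 4 and 3 genes, and the shares add to 100%. The cholinergic share spans 57.8% to 82.6% in naïve and 30.6% to 54.4% in injured pools, and the glutamate share 1.08% to 4.91% and 14.8% to 28.7%. The cholinergic 57.8% belongs to middle-aged naïve replicate 2, where Slc32a1 is high.

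Counted against neuronal RNA, the members made up 77.5 ± 5.75 counts per 1000 pan-neuronal counts in young naïve and 75.4 ± 5.86 in middle-aged naïve pools (SD, n = 3). In injured pools they made up 60.5 ± 4.002 in young and 67.5 ± 11.7 in middle-aged mice, where replicate 1 reached 81.0. The cholinergic part was 54.9 ± 5.80 per 1000 in naïve and 25.2 ± 5.17 in injured pools of young mice, and 55.3 ± 4.18 and 22.5 ± 6.33 in those of middle-aged mice. The glutamate part was 3.19 ± 1.05 and 12.3 ± 4.63 at the younger age and 1.40 ± 0.309 and 13.8 ± 5.14 at the older. The inhibitory part had 19.0 ± 5.34 and 22.6 ± 1.03 in young and 18.4 ± 8.26 and 30.98 ± 3.59 in middle-aged mice. The ranges of the cholinergic and of the glutamate part did not overlap between naïve and injured pools, whereas those of the inhibitory part overlapped at both ages. At middle age this overlap came only from naïve replicate 2, the pool with high Slc32a1. It had 27.8, against 12.6 and 14.7 in the other naïve pools and 26.8 to 33.2 in injured pools. In young mice it came only from naïve replicate 1, with 25.1 against 16.7 and 15.2, and 21.5 to 23.4 in injured pools.

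Pool by pool, the naïve dissections differed in how much neuronal RNA they held. In the young naïve group replicate 1 had the highest and replicate 3 the lowest level of 9 of the 9 members tested. The pan-neuronal sum was 6426, 4724 and 2969 CPM in these replicates 1, 2 and 3, and the motor neuron sum was 312, 272 and 149 CPM. The oligodendrocyte sum was 86605, 95804 and 101835 CPM in the same pools, the reverse order. Across the members the ratio between replicates 1 and 3 was uneven, from 59.3 against 42.4 CPM for Chat to 10.8 against 0.859 CPM for Gad2. In the middle-aged naïve group the pan-neuronal sum was 4136, 5165 and 4614 CPM, and the members did not share an order. Replicate 1 was lowest for 7 of 9, and replicate 2 was highest for 5 of 9 and lowest for Gad2 and Slc17a6. The high Slc32a1 of replicate 2 was not shared by Gad1 (12.4 CPM) or Slc6a5 (45.1 CPM), and the ratio of Slc6a5 to Slc32a1 per kb was 0.205 there against 2.05 and 1.17 in the other two pools. The dorsal horn list was high in the same replicate, at 388 CPM against 203 and 184 CPM in replicates 1 and 3, and the Schwann cell list had 5.56 against 2.40 and 2.24 CPM. In the injured groups the pan-neuronal sum was between 1212 and 1579 CPM, and no pool was highest for more than 5 of the 9 members. Young injured replicate 2, which had the lowest pan-neuronal sum of 1212 CPM, was lowest for 7 of the 9. None of the middle-aged injured pools was lowest for more than 4.

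Over the 12 pools, with each group's mean removed, the genes whose log2 CPM went most closely with the log2 of the members' summed CPM were Ndrg4 (Pearson r = 0.983), Nefh (0.971), Grin2b (0.966), Herc3 (0.960), Paqr9 (0.956), Nefm (0.954), Syt4 (0.954), Alcam (0.953), Nsf (0.952) and Disp2 (0.951). They were chosen as the highest of 13076 genes, and the pools share library depth and dissection, so the coefficients describe these libraries only. Nefh and Nefm are neurofilaments, Grin2b is a subunit of the NMDA receptor, and Syt4 and Nsf act in vesicle traffic.

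Age was compared next. In naïve mice 0 of the 9 members differed between middle-aged and young pools by edgeR's adjusted p, where 3.8% of all genes did, and DESeq2 called 1, Slc17a6. The cholinergic genes stood at like levels, with Chat at 51.9 ± 8.64 and 54.2 ± 11.7 CPM and Slc5a7 at 183 ± 68.6 and 179 ± 13.1 CPM in young and middle-aged pools. Their log2 differences were 0.06 for Chat (SE 0.25), -0.03 for Slc5a7 (SE 0.24) and 0.00 for Slc18a3 (SE 0.29). Slc17a6 had 16.2 ± 10.2 and 6.42 ± 1.08 CPM (log2 difference -1.33, SE 0.45, adjusted p = 0.122 with edgeR), Gad2 had 5.80 ± 4.99 and 1.73 ± 0.674 CPM (-1.74, SE 0.60, adjusted p = 0.131) and Gad1 had 18.4 ± 8.37 and 12.2 ± 0.248 CPM (-0.60, SE 0.27, adjusted p = 0.255). Slc32a1 had 0.94 (adjusted p = 0.497), which was -0.89 without middle-aged naïve replicate 2. The pools of both ages overlapped for all 9 members, though the share of all genes with overlapping pools is not given here. Without young naïve replicate 3 the age differences of 3 members passed the threshold, at -1.72 for Slc17a6 (adjusted p = 0.0326), -2.24 for Gad2 (adjusted p = 0.0103) and -0.92 for Gad1 (adjusted p = 0.0210). In the same comparison 3 of 6 oligodendrocyte markers were lower and 4 of 6 myeloid markers higher in middle-aged mice, whereas 0 of the 14 pan-neuronal and 0 of the 8 motor neuron markers differed.

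In injured mice 0 of the 9 members differed between the ages by edgeR, where 1.15% of all genes did, and DESeq2 called 0. Gad1 stood at 11.1 ± 1.05 CPM in young and 16.7 ± 1.20 CPM in middle-aged pools without overlap (log2 difference 0.58, SE 0.27, adjusted p = 0.516 with edgeR). When the model held the injured pools alone, the adjusted p of Gad1 was 0.0300. Slc32a1, at 2.83 ± 0.691 and 4.94 ± 1.18 CPM, was also without overlap (0.80, SE 0.79, adjusted p = 0.930). Chat (5.99 ± 1.61 and 6.24 ± 2.29 CPM), Slc17a6 (17.6 ± 8.87 and 18.5 ± 5.67 CPM) and the other members had overlapping pools. The share of all genes without overlap is not given here, so the separation of Gad1 and of Slc32a1 is a description only. In the same comparison 5 of 6 oligodendrocyte markers and 1 of 4 astrocyte markers were lower in middle-aged pools, and 0 of the 14 pan-neuronal and 0 of the 8 motor neuron markers differed. The part of these shifts in the values of Gad1 and Slc32a1 was not tested.

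The injury effect itself was then compared between the ages by an interaction contrast. Here 0 of the 9 members passed edgeR's adjusted p, where 0.139% of all genes did, and DESeq2 called 0. The differences, middle-aged minus young, were 1.18 for Gad1 (SE 0.38, adjusted p = 0.270), 1.86 for Gad2 (SE 0.81, adjusted p = 0.464) and 1.40 for Slc17a6 (SE 0.61, adjusted p = 0.464). For the cholinergic genes they were 0.00 for Chat (SE 0.39), -0.24 for Slc5a7 (SE 0.36) and -0.22 for Slc18a3 (SE 0.44). Without young naïve replicate 3 the difference of Gad1 was 1.497 (adjusted p = 0.0460). The rise of Slc17a6 in middle-aged mice was therefore not shown to differ from its value in young mice.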

How the data were processed

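RNA from laser-captured ventrolateral white matter was sequenced in 12 libraries, each a pool of 5 mice. Per the submitters' notes and the methods, the authors checked reads with FastQC 0.11.4, aligned them against GRCm38 (TopHat 2.0.10, with bowtie 1.1.2 inside it) and deposited raw counts of reads per gene from featureCounts. RNA was amplified before sequencing. The annotation release and strand setting of the counting are not given in the sources used here. Groups and replicate numbers came from the sample titles.

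The tests were run with edgeR 4.0.16 under R 4.3.3 (filterByExpr, TMM, glmQLFit, glmQLFTest), with 1 coefficient per group, no covariates and all 12 pools in 1 fit. The p-values were adjusted by Benjamini-Hochberg over 15866 genes at a threshold of 0.05, and standard errors were taken from each log2 fold change and its F (change over root F). The steps were tested on simulated data. Log2 CPM used a prior count of 2, and lengths are merged exons of the GENCODE annotation on GRCm38. Chi-square over degrees of freedom was at least 7.48 for each pair of pools in a group, so no pools were merged.

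The members and the gene lists were chosen with earlier results of these data known. All 10 members are named. From each other list up to 3 called genes with the largest change by injury in young mice are named, apart from those picked after their values were seen: Slc1a2, Slc1a3, Glul and genes listed at 0. Up to 10 genes are named for likeness, among genes with a mean log2 CPM of at least 1. Alternatives were other scalings, DESeq2 1.42.0, other filters, fewer pools, a replicate block and each of the 12 pools left out. Scaling to marker lists was added after the data were seen.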

Additional observations from a re-analysis of the deposited data

How the results depend on the processing

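Over all alternatives, 902 of 933 recomputed log2 fold changes of the members were counted as unchanged. These kept their side of the threshold, and called ones kept their direction, whereas values not called could change sign. Of the rest, 20 newly passed the threshold, 11 no longer did, and 0 called values reversed. Relative to the pan-neuronal genes 228 of 234 were counted as unchanged in this way. The number of members called was 5 to 8 in young and 6 to 9 in middle-aged mice with each pool left out (7 in both with all pools). Of all genes, 7533 to 9681 were called in young and 8270 to 9645 in middle-aged mice with a pool left out. In the other settings 8577 to 9404 and 7975 to 9544 of all genes were called by injury. By age in naïve mice it was 0, but 1 with DESeq2 (Slc17a6), 2 without a low-count filter (Slc17a6 and Gad2) and 0 to 3 with each pool left out. By age in injured mice it was 1 with only the pools compared (Gad1), and for the difference of injury effects 0 to 1 with each pool left out. Without mitochondrial genes the inhibitory class summed to 48.6 CPM in middle-aged injured and the cholinergic class to 289 CPM in middle-aged naïve pools. Per 1000 synaptic vesicle counts the members made up 190 and 159 in naïve and injured pools of young mice and 199 and 189 in those of middle-aged mice. Counts of all genes differed most for age. In naïve mice 603 were called, but 1100 with DESeq2, 1153 without the filter, 71 with only the pools compared and 261 to 800 with a pool left out. In injured mice 182 were called, but 441, 437 and 818 in the same settings and 45 to 410 with a pool left out. For the difference of injury effects 22 were called, but 240 with DESeq2, 329 without the filter and 3 to 56 with a pool left out. Causes were not tested. Pools with the same replicate number did not deviate together (18 pairs, correlations from -0.11 to 0.15, 2 over 0.1), and with the replicate number as a block 7 members were called in young and 8 in middle-aged mice, Gad2 the added one (adjusted p = 0.0385). Isl1, Gad2 in naïve pools and Slc17a7 rest on few counts, so small differences in them were not detectable at this depth, and 3 pools a group leave the middle-aged value of Slc32a1 to 1 pool.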

Other observations

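Genes of other transmitter systems were also present. Of 8 monoaminergic genes 2 were tested, and 2 were lower after injury in young and 1 in middle-aged mice. Ddc, the decarboxylase of dopamine and serotonin synthesis, stood at 36.6 ± 9.18 CPM in young naïve and 36.9 ± 3.78 CPM in middle-aged naïve pools, and at 7.18 ± 1.25 and 7.37 ± 1.85 CPM after injury (SD, n = 3), with log2 fold changes of -2.35 and -2.32 (edgeR, adjusted p = 1.00e-06 and 9.83e-07). Slc18a2, the vesicular monoamine transporter, had log2 fold changes of -0.62 (adjusted p = 0.0173) and -0.24 (adjusted p = 0.333). Dbh was at 0 in all pools. Penk, the precursor of the enkephalins, was higher after injury with log2 fold changes of 1.38 and 1.97 (edgeR, adjusted p = 0.0377 and 0.00674), from 1.09 ± 0.451 and 0.754 ± 0.515 CPM to 2.88 ± 0.379 and 2.91 ± 1.11 CPM. The ratio of Gad1 to Gad2 per kb was 1.84, 2.70 and 8.37 in young naïve and 3.82, 9.08 and 5.35 in middle-aged naïve pools, and 1.80 to 2.29 and 1.99 to 3.22 in young and middle-aged injured pools. Slc17a8, the third vesicular glutamate transporter, did not pass the filter, with 7 to 18 counts in young injured, 3 to 8 in middle-aged injured, 1 to 8 in young naïve and 0 to 1 in middle-aged naïve pools. Penk and Slc17a8 were chosen after their values were seen.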
